A study of Chlamydomonas reinhardtii with 6 samples.

Results

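The genes described here were those whose messenger RNA was at least 4-fold higher in every cell group library than in any single cell library of the green alga Chlamydomonas reinhardtii. They were chosen by their measured levels. Each count was divided by the total of its library and multiplied by 1000000 (CPM), and a gene was a member when its lowest CPM over the 3 cell group libraries was at least 5 and at least 4 times the highest CPM over the 3 single cell libraries plus 0.5. The rule found 126 members among 17741 genes (0.710%). With the morphotypes exchanged, the same rule found 43 genes. The difference between the morphotypes is therefore a property of the choice, and it is given below as a description with no test.

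RNA-seq was available for 6 libraries, 1 for each of 2 morphotypes in each of 3 treatments. The morphotypes were 1 pair of isolates of the wild type strain cc1009, a single cell isolate from the lines kept without predators and a cell group isolate from the lines kept with predatory rotifers. Both were grown in chemostats in COOL80 medium for 10 days and then for 5 more days unchanged (control), with rotifers added (rotifer), or with the nitrogen supply lowered to 40 µM (low nitrogen). Per the study's methods, RNA was pooled by treatment before sequencing, so each library stands for a pool of chemostats and the 3 libraries of a morphotype are 1 isolate in 3 treatments, not independent origins of the morphotype. With 1 isolate of each kind, morphotype, isolate and selection history cannot be told apart.

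Chlamydomonas normally lives as free swimming cells with a pair of flagella and a wall of glycoproteins. It divides by multiple fission inside the mother cell wall, and the daughters are released when that wall is digested. In cell groups, daughters stay together after division inside an extracellular matrix. Wall and matrix proteins, the enzymes that digest the mother wall, and flagellar proteins are the classes usually examined in such forms, but the gene IDs of the deposited counts carry no names, so the members are described by ID, level and position, with no function given. No defining marker of a cell state could be looked up by name either.

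Library totals ran from 5453218 to 9054895 counts, and 3 counts in a library corresponded to 0.331 to 0.550 CPM. Counts in bulk RNA do not tell more RNA per cell from a larger share of expressing cells. The members took 0.146, 0.150 and 0.168% of all counts in the control, rotifer and low nitrogen single cell libraries. They took 1.64, 1.65 and 1.92% in the corresponding cell group libraries. The median member stood at 4.31, 5.02 and 5.42 CPM in single cells and at 60.8, 62.9 and 71.8 CPM in cell groups, in the same order of treatments. In cell groups 41 members reached 100 CPM in every library and 5 reached 500 CPM. In single cells the members were mostly scarce, and 40 of them had fewer than 50 counts over the 3 libraries together.

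**Figure D1:**
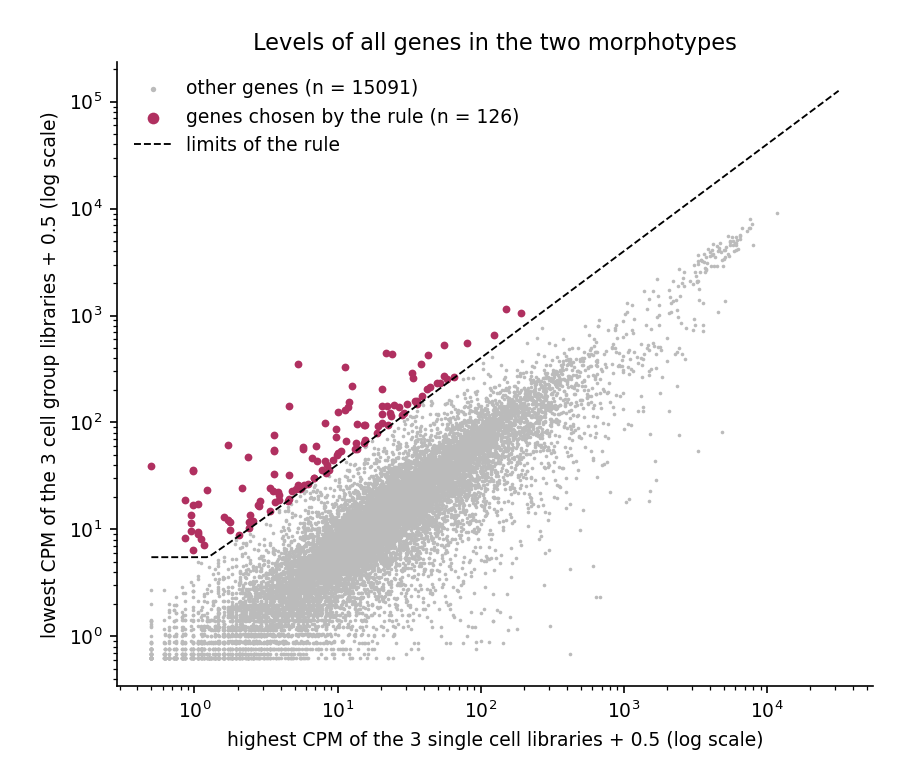
Each point is a gene, with the highest CPM of the 3 single cell libraries on the horizontal axis and the lowest CPM of the 3 cell group libraries on the vertical axis, both plus 0.5 and on log scales. The dashed line marks the limits of the rule, and the 126 members (dark points) lie above it by construction, from 5.89 to 1149 CPM in their lowest cell group library. Genes at 0 in a cell group library are not drawn unless they are members.

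The member with the highest CPM in its lowest cell group library was Cre16.g686750, at 1279, 1204 and 1149 CPM in control, rotifer and low nitrogen cell groups. In single cells it stood at 70.1, 10.0 and 148 CPM. The cell group levels thus lay close together, while the single cell levels spread widely with the rotifer library lowest. Cre17.g734757 was at 1180, 1054 and 1538 CPM in cell groups and at 7.29, 87.5 and 192 CPM in single cells, where the control library was lowest. These 2 genes were also the highest members per kilobase of gene span, at a mean cell group level of 283 CPM per kb for Cre17.g734757 and 224 CPM per kb for Cre16.g686750, against a median of 10.2 over the members. Gene spans include introns, and CPM alone is not comparable between genes of different length.

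Cre08.g361950 was the steadiest of the abundant members in single cells, at 123, 121 and 121 CPM, with 828, 657 and 742 CPM in cell groups. Cre09.g410332 stood at 62.1, 79.8 and 55.3 CPM in single cells and at 576, 548 and 588 CPM in cell groups. Cre09.g389838 stood at 26.5, 55.0 and 23.5 CPM in single cells and at 526, 616 and 642 CPM in cell groups. In all 3 genes the lowest cell group library exceeded the highest single cell library several times over, as the rule requires. The other members among the 12 with the highest lowest cell group level, Cre03.g173100, Cre01.g030100, Cre01.g052150, Cre02.g099350, Cre03.g196250, Cre10.g435750 and Cre11.g467610, had lowest cell group levels from 288 CPM (Cre11.g467610) to 450 CPM (Cre03.g173100).

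The ratio used by the rule had a median of 5.86 over the members, with quartiles of 4.61 and 9.39. It reached 8 in 40 members, 16 in 15 members and 32 in 5 members. Cre02.g099350 combined a high level with a large ratio. It was at 4.20, 4.78 and 3.01 CPM in single cells and at 353, 411 and 602 CPM in cell groups, a ratio of 66.9. Cre10.g435750 (ratio 29.5) and Cre03.g173100 (ratio 20.6) were likewise among the 12 highest both by level and by ratio.

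The largest ratio, 77.4, belonged to Cre06.g285600, which had no count in any single cell library and 369, 211 and 399 counts in control, rotifer and low nitrogen cell groups. Set against a floor of 3 counts in each single cell library, its level was at least 141-fold, 80.9-fold and 148-fold higher in cell groups in the 3 treatments. It was the only member with no single cell count. Cre15.g643191 had 0, 3 and 0 counts in single cells against 271, 247 and 686 in cell groups, a ratio of pooled CPM of 456 with a 95% counting interval of 156 to 2213. Cre12.g532151 had 0, 0 and 4 counts in single cells against 300, 195 and 321 in cell groups, a ratio of 232 with an interval of 90.1 to 852. Cre06.g277100 had 1, 2 and 3 counts against 150, 100 and 206, a ratio of 86.3 with an interval of 39.4 to 236. These intervals cover counting error only. In all, 12 members had fewer than 10 counts over the 3 single cell libraries, so the size of their difference rests on very few reads.

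**Figure D2:**
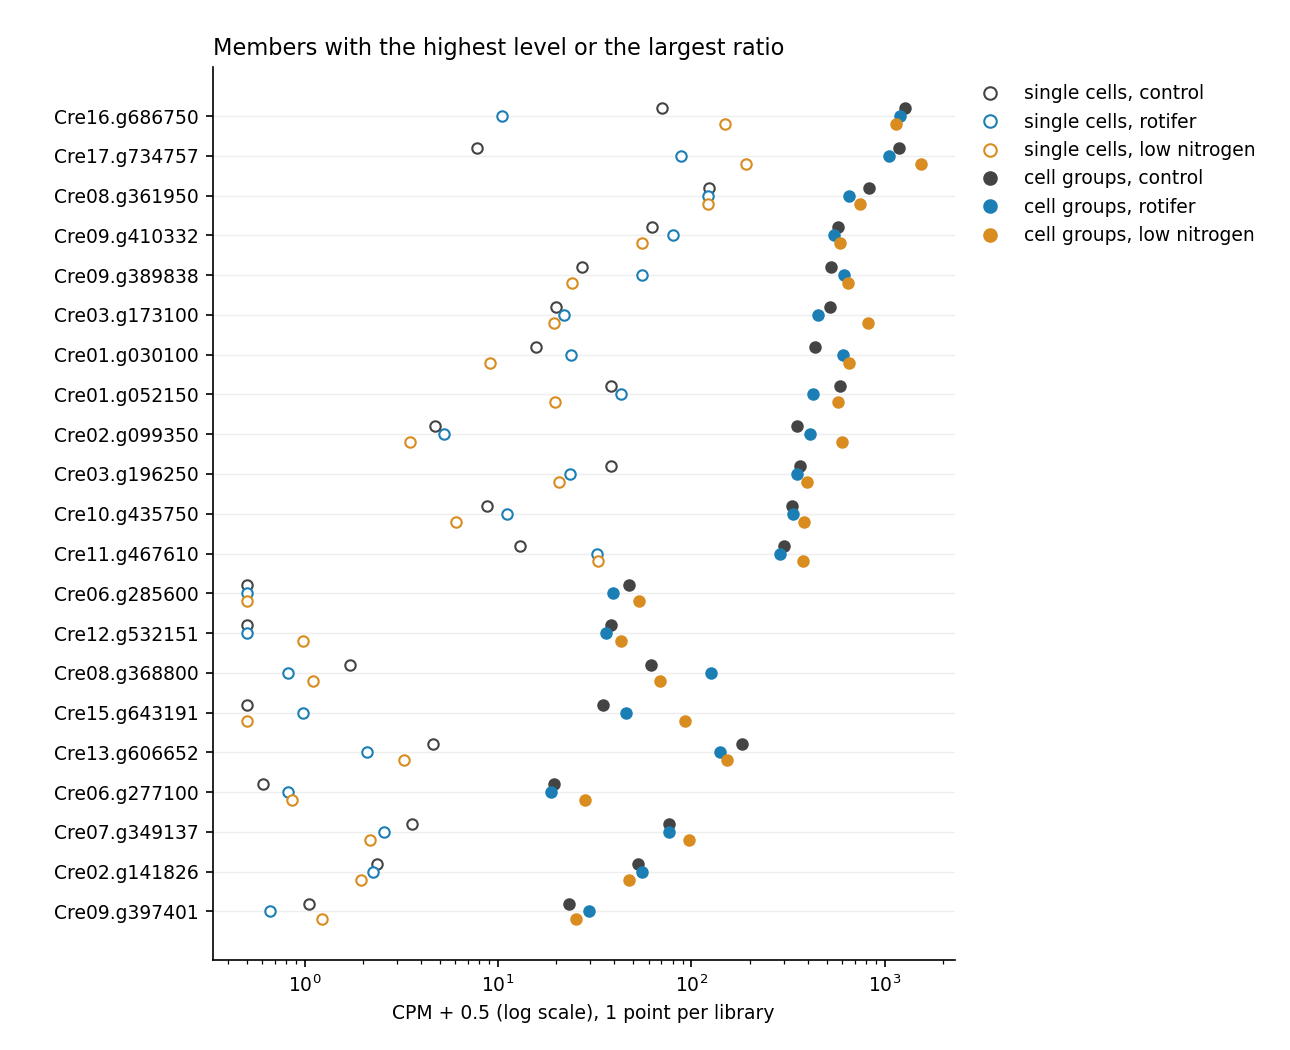
CPM plus 0.5 (log scale) in each of the 6 libraries for the members with the highest lowest cell group level and those with the largest ratio, with single cell libraries as open and cell group libraries as filled points, coloured by treatment. Cell group points of most genes lie close together, and single cell points spread most widely in Cre16.g686750 (10.0 to 148 CPM) and Cre17.g734757 (7.29 to 192 CPM).

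The rule cut through a continuous range. Just inside the 4-fold line lay Cre13.g605350 (ratio 4.02), Cre12.g534945 (4.02), Cre01.g042700 (4.03) and Cre09.g406300 (4.07). Just outside lay Cre16.g689851 (3.999), Cre03.g146067 (3.98), Cre09.g396698 (3.96) and Cre02.g142627 (3.92). At the 5 CPM line, the lowest member was Cre03.g206201 at 5.89 CPM, and the nearest gene below it that met the fold was Cre04.g217928 at 4.44 CPM. The number of members depended on the fold required, at 192 genes for 3-fold and 40 genes for 8-fold, and on the control libraries. Without the control single cell library 195 genes met the rule, and without both control libraries 231 did. Leaving out a library can only add genes to the rule, and leaving out any other single library gave 135 to 162.

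Within each treatment the members' median log2 difference between the cell group and the single cell library, on log2(CPM + 0.5), was 3.35 under control conditions, 3.56 with rotifers and 3.52 under low nitrogen. In the edgeR quasi-likelihood fit across all 6 libraries, with treatment as a covariate, the median log2 fold change of the members was 3.80. It lay between 2.36 and 8.51 in the 125 members with a single cell count. Cre06.g285600 had no single cell count, so its fitted value is no bound, and the median was 3.80 also with this gene at its lower bound. All 126 members were among the 673 genes called higher in cell groups at an adjusted p below 0.05 (4.76% of 14136 genes tested). As the same contrast chose the members, that count is a description. All members passed the filter on low counts, which their cell group levels ensured.

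The 3 differences of a gene were close to each other in many members and far apart in others. In 54 members the largest and smallest of the 3 lay within 2-fold of each other, and in 19 they were at least 4-fold apart, with a median range of 1.07 on the log2 scale. Cre02.g141826 was one of the even ones, with log2 differences of 4.47, 4.63 and 4.60 in control, rotifer and low nitrogen. In Cre17.g734757 the difference was 7.24 under control conditions, 3.58 with rotifers and 2.998 under low nitrogen, the widest range of the members at 4.25. In Cre16.g686750 it was 4.18, 6.84 and 2.95. For both genes the cell group level varied by less than 1.5-fold, so the range came almost wholly from the single cell libraries.

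The ratio of the highest to the lowest cell group CPM had a median of 1.39 over the members and lay below 2 in 112 of 126 (88.9%), beside 85.0% of the 10229 genes that reached 5 CPM in every cell group library. On log2(CPM + 0.5), the range over the 3 treatments had a median of 0.46 in cell groups and 0.97 in single cells, beside 0.52 and 0.79 for the genes with at least 5 CPM in every cell group library. The single cell range was the wider one in 98 members (77.8%), beside 69.1% of those genes. Since low counts widen a range by themselves, the 37 members with at least 300 single cell counts were also taken alone. There the single cell range was wider in 27 (73.0%). With TMM (trimmed mean of M-values) scaling it was wider in 105 members (83.3%) and in 31 of these 37 (83.8%). The share of the comparison genes was then 68.9%, and these were not limited to genes with 300 single cell counts. The rule bounds the single cell levels from above and the cell group levels from below, so these ranges are a description.

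**Figure D3:**
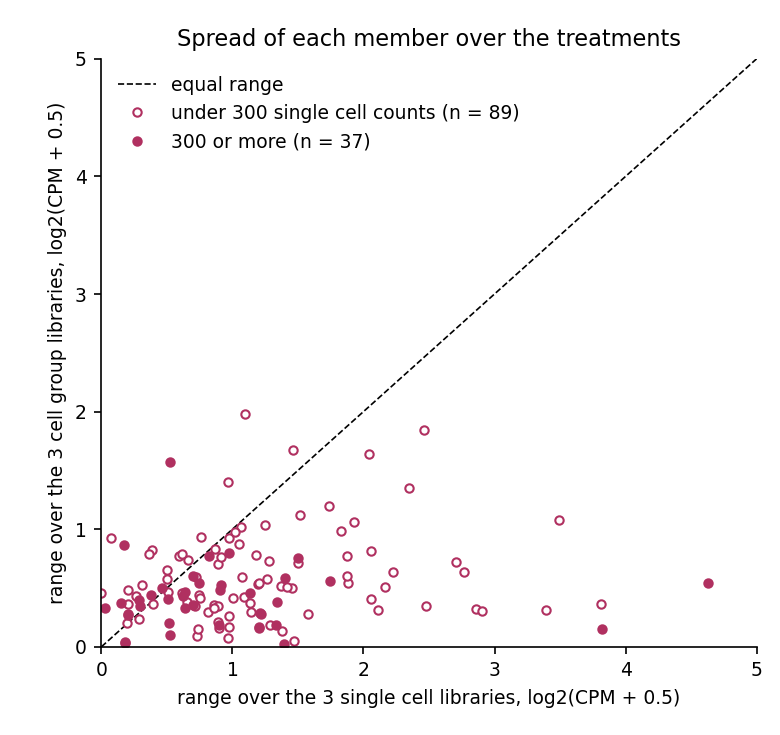
Each point is a member, with the range of log2(CPM + 0.5) over the 3 single cell libraries on the horizontal axis and over the 3 cell group libraries on the vertical axis. Of the 126 members, 98 lie below the dashed line of equal range, 27 of them among the 37 members with at least 300 single cell counts (filled points).

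The narrowest cell group range belonged to Cre05.g232600, at 140, 138 and 141 CPM, a ratio of 1.02. Cre03.g200200 was at 148, 151 and 148 CPM. Cre04.g228800 was at 217, 213 and 220 CPM, and Cre06.g260550 at 12.2, 11.9 and 11.8 CPM. In single cells Cre03.g200200 was at 30.2, 28.2 and 26.5 CPM, a log2 range of 0.18 against 0.03 in cell groups, while Cre05.g232600 stood at 26.4, 16.7 and 9.76 CPM. The widest cell group range was that of Cre13.g605350, at 19.5, 17.97 and 72.4 CPM, with the low nitrogen library alone high. Cre08.g365851 (23.98, 87.5 and 38.5 CPM) and Cre09.g397702 (9.90, 28.1 and 8.43 CPM) were highest in the rotifer library, and Cre10.g430200 (112, 43.6 and 137 CPM) was lowest there.

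Which cell group library was highest depended on the scaling. With CPM from library totals, the low nitrogen cell group library was highest in 68 members. With trimmed mean of M-values (TMM) scaling it was highest in 44, the rotifer library in 46 and the control library in 36. With library totals, the median of all genes tested was itself 0.21 higher on the log2 scale in low nitrogen than in control cell groups, and the members' median was 0.24 higher. In this contrast the members' median thus moved with that of all genes. In single cells the medians of members and of all genes tested were -0.05 and -0.06 with low nitrogen against control. With rotifers against control they differed, at 0 and -0.30. The rule bounds the members' single cell levels from above, and the control single cell library kept out the most genes. This difference therefore cannot be told apart from the choice.

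The treatments were compared over both morphotypes, with morphotype as a covariate, to ask whether members responded to rotifers or to low nitrogen. These contrasts were not the one that chose the members, although the rule bounds each library's level. No member passed an adjusted p of 0.05 in edgeR in any of the 3 contrasts, and 0% of the 14136 genes tested were called in either direction. At an unadjusted p below 0.05, 5 members were higher and 2 lower with rotifers than in control (3.97 and 1.59% of members, beside 2.29 and 4.92% of all genes). With low nitrogen against control 2 were higher and 0 lower (1.59 and 0%, beside 2.23 and 3.54%). With rotifers against low nitrogen 9 were higher and 2 lower (7.14 and 1.59%, beside 2.19 and 3.91%). The limma test called no member in any contrast, and the DESeq2 Wald test called 2 members with rotifers against control, Cre08.g365851 and Cre12.g495956, both higher, beside 0.0553% of all genes called higher. In all, DESeq2 called 85, 49 and 49 genes with rotifers against control, low nitrogen against control and rotifers against low nitrogen.

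The single treatment libraries weighed on this. Without the control cell group library, which leaves the control to 1 single cell library assumed to vary like the others, edgeR called 9 members with rotifers against control, 8 higher and 1 lower, beside 2.84% of all genes higher and 4.92% lower. With low nitrogen against control it then called 6 members, 4 higher and 2 lower, beside 1.34% and 3.66% of all genes. In both contrasts the control was then the single cell library, whose level in members the rule bounds from above. That library also kept out the most genes. The excess of higher over lower members therefore cannot be told apart from the choice, and nothing is concluded from it. Among the members in both sets, Cre17.g734757, Cre09.g406300, Cre12.g534945 and Cre16.g651450 were higher and Cre03.g205500 lower than the single cell control library. In cell groups Cre09.g406300, Cre12.g534945 and Cre16.g651450 were also higher than in control with both treatments. Cre03.g205500 was higher there with rotifers, against its single cell direction, at 77.4 CPM beside 60.0 CPM in control. With low nitrogen it stood at 68.8 CPM by library totals. With that scaling the median of all genes tested was also 0.21 higher on the log2 scale, so no direction is read from this value. Cre17.g734757 stood at 1180, 1054 and 1538 CPM in cell groups, lower than in control with rotifers. In the study's methods, the rotifer libraries are described as possibly contaminated because a larger part of their reads failed to map. The part of this in the rotifer values was not tested.

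The members with the lowest unadjusted p are described next. A low p in a contrast over both morphotypes favours genes that moved the same way in both. Over all members, 51.6% moved the same way in both with rotifers against control, beside 55.45% of the genes tested. The share was 61.1% with low nitrogen against control, beside 50.6%, and 56.35% with rotifers against low nitrogen, beside 59.98%. Cre08.g365851 had 1, 18 and 4 counts in control, rotifer and low nitrogen single cells and 189, 477 and 288 in cell groups, highest with rotifers in both. Its log2 fold change with rotifers against control was 2.53 (SE 0.58, edgeR adjusted p = 0.663). Cre12.g492504 had 4, 27 and 5 counts in single cells against 175, 313 and 249 in cell groups, a log2 fold change of 2.17 (SE 0.58, edgeR adjusted p = 0.663). Cre12.g495956 had 1, 40 and 1 counts in single cells against 235, 346 and 229 in cell groups, a log2 fold change of 2.67 (SE 1.003, edgeR adjusted p = 0.663). Cre12.g495959 had 2, 8 and 1 counts in single cells against 101, 114 and 70 in cell groups. These 3 genes of chromosome 12 lie at 665146-667891, 867585-875055 and 905780-927085, and each had its highest CPM with rotifers in both morphotypes. They were named for a low p with rotifers higher, so this pattern follows in part from the naming. Their nearness was not tested against that of other members.

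Cre06.g292249 was also higher with rotifers, at 4.20, 10.7 and 6.02 CPM in single cells against 130, 268 and 195 CPM in cell groups, a log2 fold change of 1.29 against control (SE 0.32). Cre10.g430200 went the other way, at 8.06, 1.75 and 8.79 CPM in single cells against 112, 43.6 and 137 CPM in cell groups. Its log2 fold change with rotifers was -1.58 against control (SE 0.34) and -1.71 against low nitrogen (SE 0.34). Cre02.g074800 was highest in control in both morphotypes, at 10.1, 1.12 and 3.98 CPM in single cells against 88.7, 62.4 and 53.7 CPM in cell groups. With low nitrogen, Cre01.g042600 was at 38.4 CPM in single cells and 298 CPM in cell groups, against 13.3 and 177 CPM in control. Cre16.g651450 was lowest in control in both morphotypes, at 1.88 CPM in single cells and 48.9 CPM in cell groups. None of these values passed the correction over all genes.

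**Figure D4:**
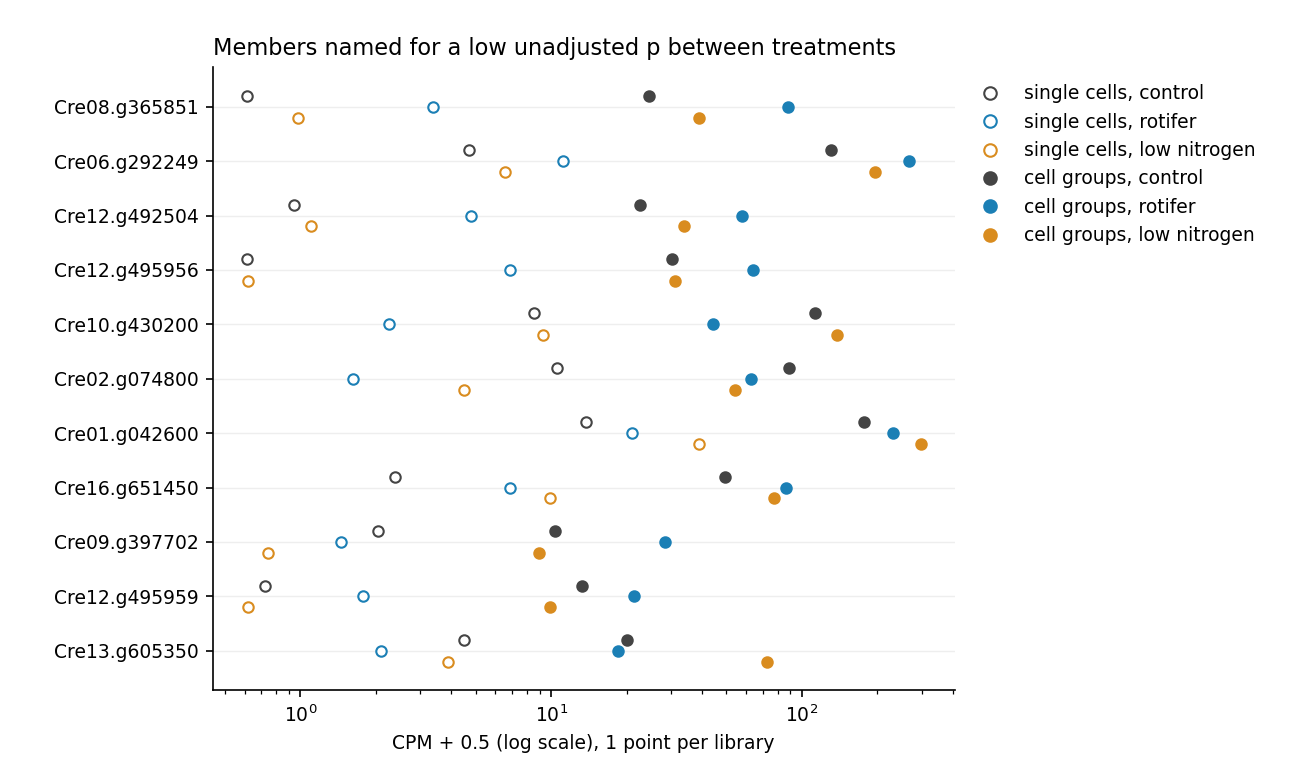
CPM plus 0.5 (log scale) in each of the 6 libraries for the 11 members named for a low unadjusted p in a treatment contrast, with open points for single cells, filled points for cell groups and colour for treatment. In Cre08.g365851 and the 3 genes of chromosome 12 the rotifer point is the highest of its morphotype, and in Cre10.g430200 it is the lowest. Single cell and cell group points of a member cannot overlap, by construction of the rule.

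Positions were taken from the RefSeq gene table of assembly Chlamydomonas_reinhardtii_v5.5, the annotation version that the deposited gene IDs carry. The 125 members placed on a chromosome were spread over all 17 chromosomes, from 2 on chromosome 15 to 13 on chromosomes 2 and 3. Members made up between 0.280% (chromosome 7) and 1.06% (chromosome 5) of a chromosome's genes. Cre28.g757747 was not on a numbered chromosome.

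Some members were next to each other. In 16 of 125 members (12.8%) the next gene on either side was also a member. With 0.716% of all placed genes being members, a gene with a neighbour on each side would have a member beside it in 1.43% if members lay anywhere. Among genes that passed the count filter, 22 of 125 (17.6%) had a member as the next gene. The 1.43% is for all placed genes, and no such share was computed for the filtered genes. Among all placed genes, those chosen with the morphotypes exchanged lay beside another of their own in 6 of 43 (13.95%). The 16 members formed 7 runs, 1 of 4 genes and 6 pairs, which include the nested pair on chromosome 6 described below.

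The run of 4 lay on chromosome 2 at 8469956-8508355. Its first gene, Cre02.g141766, stood at 3.42, 1.12 and 1.69 CPM in control, rotifer and low nitrogen single cells and at 23.7, 18.5 and 31.0 CPM in cell groups. Cre02.g141786 stood at 3.09, 0.478 and 1.33 CPM in single cells and at 73.5, 55.0 and 94.2 CPM in cell groups. Cre02.g141806 had the highest CPM of the run, not corrected for length, at 14.4, 22.6 and 16.02 CPM in single cells against 122, 139 and 168 CPM in cell groups. Cre02.g141826 stood at 1.88, 1.75 and 1.45 CPM in single cells and at 52.3, 55.2 and 46.8 CPM in cell groups. The genes on either side of the run were not members. The gene before it, Cre02.g141746, had 31, 52 and 50 counts in single cells against 22, 3 and 45 in cell groups. The pair of genes after it, Cre02.g141846 and Cre02.g141866, had no single cell count and at most 2 counts in a cell group library. The gene after those, Cre02.g141886, was higher in cell groups in each treatment, with log2 differences of 1.59, 3.46 and 1.47.

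On chromosome 9 the pair Cre09.g397364 and Cre09.g397401 (4807515-4814863) was followed, 1 gene on, by a further member, Cre09.g397475 (4820421-4828432). The gene between, Cre09.g397438, was itself higher in cell groups, with log2 differences of 1.35, 1.58 and 2.03 in control, rotifer and low nitrogen. On chromosome 3 there were 3 pairs. Cre03.g173100 and Cre03.g173132 lay at 4106546-4115814, and both were highest in low nitrogen cell groups, with 6120 and 3201 counts there against 4117 and 1132 in control cell groups. Cre03.g196250 and Cre03.g196300 lay at 6588479-6596410, and Cre03.g206200 and Cre03.g206201 at 7379270-7399421. In cell groups, Cre03.g206200 had 1326, 831 and 1120 counts and Cre03.g206201 had 49, 34 and 44.

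On chromosome 13 Cre13.g568316 and Cre13.g568350 lay at 980422-989596, with log2 differences of 4.03, 3.55 and 4.60 for the first and 3.61, 2.59 and 4.03 for the second. The pair on chromosome 6 is not a pair of separate neighbours. Cre06.g292282 (6403555-6405036) lies wholly inside Cre06.g292249 (6377397-6410484), with 1482 shared bases, and the strand setting of the counting was not stated. Their reads may not be separable, and both values are uncertain as values of separate genes. No other member overlapped a gene.

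**Figure D5:**
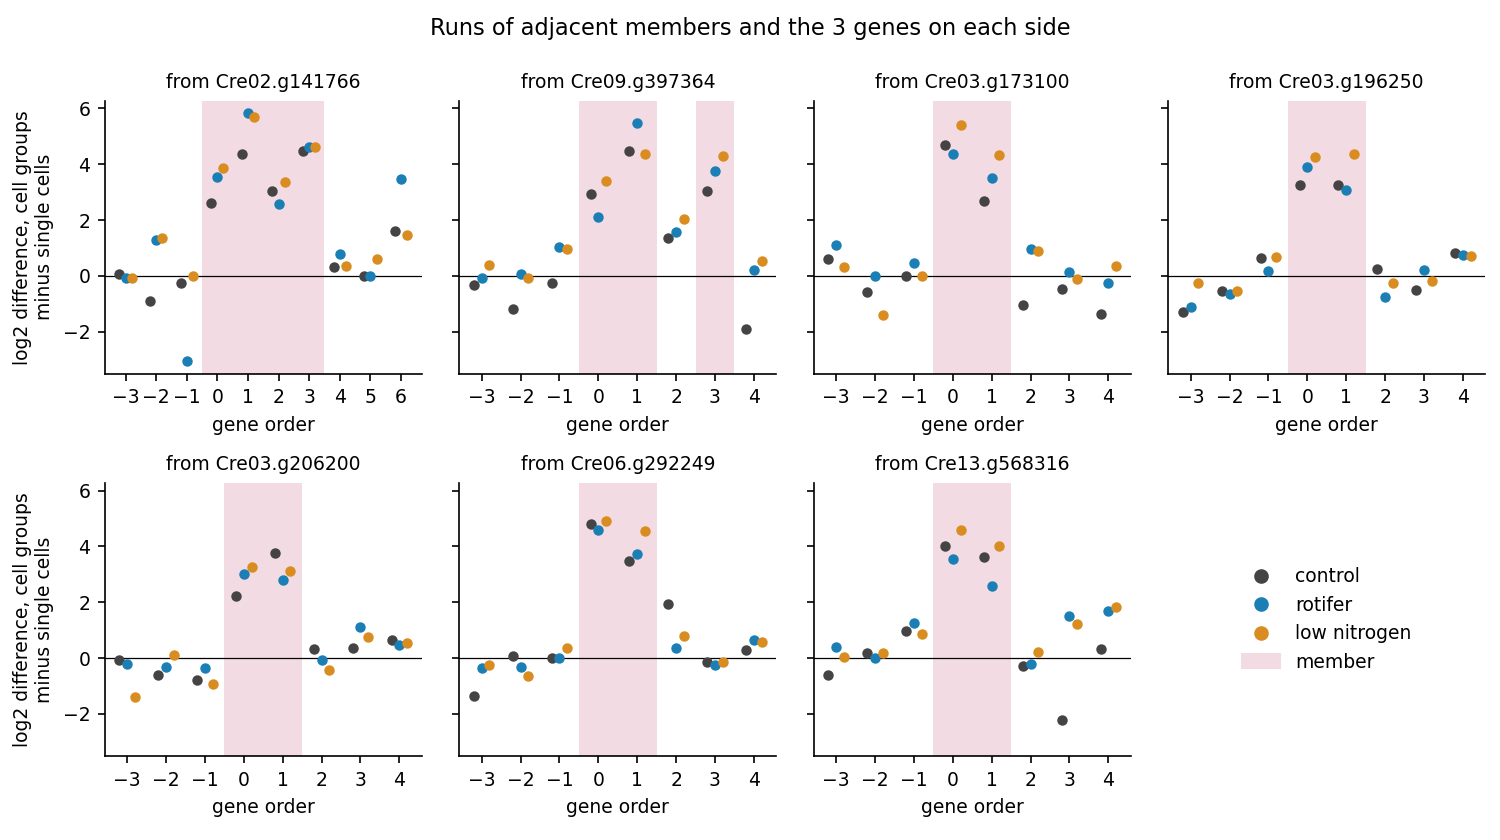
Log2 difference between cell groups and single cells, on log2(CPM + 0.5), in each treatment for the 7 runs of adjacent members (shaded) and the 3 genes on each side, in gene order from the first member of the run. Members stand between 2.11 and 5.83, and many genes beside them lie nearer 0. Cre09.g397438 (1.35 to 2.03) and Cre02.g141886 (1.47 to 3.46) are high in each treatment. Other genes beside the runs also stand far from 0 in a treatment, such as Cre02.g141746 at -3.065 with rotifers and Cre13.g568450 at -2.20 in control.

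Beyond the runs, the genes beside a member were compared with the tested genes that were neither members nor next to one. Of 196 tested genes next to a member that were not members themselves, 59 (30.1%) were higher in cell groups in all 3 treatments, beside 24.04% of 13814 genes, and 39 (19.9%) were lower in all 3, beside 22.2%. They were at least 2-fold higher in all 3 treatments in 18 (9.18%), beside 3.66%. Overlapping reads between neighbours were not tested. With gaps of at most 250 kb between members, 2 further stretches held at least 4 members. Chromosome 16 had 5 members among 44 genes at 1287058-1547297 (Cre16.g651450, Cre16.g651700, Cre16.g651850, Cre16.g652483 and Cre16.g653400), and chromosome 13 had 4 among 33 genes at 798374-989596. In these stretches the tested genes that were not members had a median log2 difference of 0.06 and 0.10.

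Members had longer gene spans than comparable genes. Their median span was 6297 bases, from 1016 to 38518, beside 4876 bases for the genes with at least 5 CPM in every cell group library, and 79 of 126 members exceeded that median. The genes chosen with the morphotypes exchanged had a median span of 4952 bases. Longer genes collect more counts at the same abundance, and the part of this in the choice was not tested.

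The paper's text names 7 gene IDs for DNA variants in or near them, a different measure from the RNA levels used here. None was a member, beside 0.710% of all genes, and with so few genes this carries little information. Pherophorins, which are extracellular matrix glycoproteins, are among the genes named. Of these, 1 pherophorin gene was higher in cell groups in each treatment without meeting the rule. Cre01.g049826 stood at 44.3, 83.2 and 41.8 CPM in control, rotifer and low nitrogen single cells and at 176, 299 and 172 CPM in cell groups. Its log2 difference was 1.97, 1.84 and 2.02 in the 3 treatments. It was 1 of 524 tested genes outside the members (3.74%) that were at least 2-fold higher in cell groups in all 3. Its ratio by the rule was 2.05, since the rotifer single cell library was compared with the low nitrogen cell group library. The edgeR log2 fold change was 1.94 (SE 0.26, adjusted p = 0.00941). The second pherophorin gene named there, Cre06.g290676, had at most 12 counts in any library, and Cre10.g431050 had at most 28, and neither was tested. Cre10.g452800 was the one with the largest difference in the other direction, with log2 differences of -0.11, -3.45 and -1.46 in control, rotifers and low nitrogen (edgeR log2 fold change -1.70, SE 0.68, adjusted p = 0.183). The edgeR log2 fold change was -0.27 for Cre12.g522650 (SE 0.28, adjusted p = 0.612), 0.09 for Cre12.g491600 (SE 0.35, adjusted p = 0.910) and 0.39 for Cre06.g266300 (SE 0.24, adjusted p = 0.365).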

How the data were processed

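Total RNA of 6 libraries, 1 per morphotype and treatment, was sequenced (paired Illumina reads). Per the labels and the study's methods, the authors checked reads with FastQC, mapped them with HISAT2 to the Chlamydomonas genome version 5.0 and counted them per gene with HTSeq. The strand setting and the tool versions are not given in the sources used here. The deposited counts are whole numbers without normalization, and the analysis rests on them. The authors' DESeq2-normalized values, their mean columns and their own fold changes and adjusted p-values were not used. No other column of values per sample was left unmatched.

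CPM were computed from library totals. Treatments and morphotypes were compared with the quasi-likelihood test of edgeR 4.0.16 (R 4.3.3), with TMM scaling, its default filter on low counts by morphotype (14136 genes), the other factor as covariate and Benjamini-Hochberg adjustment over all genes tested. Standard errors were derived from the fold change and the F statistic. Alternatives used DESeq2 1.42.0, limma 3.58.1 on log2(CPM + 0.5), other scaling, no filter, no covariate and each library left out. The fit was also run on simulated data with the same mean level for both morphotypes, unlike the members, and no result here rests on that run. Since each morphotype has 1 library per treatment, p-values measure the spread left between these libraries after both factors, not between cultures.

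The members and lists were chosen with earlier results of these data known. Genes were named by rule: the 12 with the highest lowest cell group level, the 12 with the largest ratio, those without single cell counts, the 4 nearest on each side of the 4-fold line, the 4 with the lowest p per direction and treatment contrast, those in runs, and the 4 widest and 4 narrowest cell group ranges. The neighbour Cre09.g397438, the genes beside the run on chromosome 2, Cre04.g217928, the members of stretches, those called without the control cell group library and the genes named in the paper were added after their values were seen. Of 17741 IDs, 17738 matched the RefSeq gene table, which pairs them with positions but no names. The lists of pathways and the markers of vegetative cells and gametes, which needed names, were therefore not used here, and no sequence is shown.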

Additional observations from a re-analysis of the deposited data

How the results depend on the processing

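The number of members was within 1.5 times of 126 under 13 of the 17 alternatives to the rule, from 97 genes at 20 CPM to 174 without both low nitrogen libraries. It was 192 for a fold of 3, 40 for a fold of 8, and 231 without both control libraries (leaving out both libraries of a treatment was added after seeing the data). Leaving out 1 library gave 135 to 195 genes, and leaving out libraries can only add genes. With TMM-scaled CPM 126 genes met the rule, 117 of them members, and with DESeq2 size factors 121, of which 112 were members. The median log2 fold change of the members was 3.69 without the covariate and between 3.69 and 3.81 with 1 library left out. The DESeq2 Wald test called 2 members with rotifers against control. With 1 library left out the count of members called was 0 to 9 for rotifers against control and 0 to 6 for low nitrogen against control, and 0 in each fit for rotifers against low nitrogen. Both counts above 0 came without the control cell group library, and the cause was not tested. Without a covariate no member had an unadjusted p below 0.05 in any treatment contrast. In that fit the morphotype difference that chose the members counts as spread within a treatment. A low p was therefore hardly possible, and nothing is concluded from it. The share of members beside another member was 17.6% among filtered genes, and the share of neighbours higher in all 3 treatments was 26.9% with 2 genes on each side. The fit with treatment as a covariate pairs the 2 libraries of each treatment, and the fit without it is the unpaired one. With 3 counts at 0.331 to 0.550 CPM, depth limits the fold of the 12 members with fewer than 10 single cell counts.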
